A study of Mus musculus with 2 samples.

Results

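The genes described here are 9 genes of early B cell development: Rag1, Rag2, Dntt, Vpreb1, Igll1, Vpreb3, Ebf1, Pax5 and Sox4. They were taken by symbol from the 27998 genes of a single-cell count table of brain leukocytes, and their transcripts were counted in B lineage cells. A B lineage cell was a barcode with at least 2 unique molecular identifiers (UMIs, each standing for 1 captured transcript) of Cd79a and Cd79b together, which encode the signaling chains of the B cell receptor, and no UMI of the T cell genes Cd3d, Cd3e or Cd3g. This rule took 555 of 1271 WT cells and 149 of 1207 twi cells. The leukocytes were CD45+ cells sorted from the brains of untreated C57Bl/6 mice at postnatal day 21 (p21). The twi (twitcher) mouse is a model of globoid cell leukodystrophy and carries an inherited loss of galactosylceramidase (galc-/-) in every cell, and the WT animals were galc+/+ littermates. Each genotype was a pool of 2 to 3 animals read as 1 library, so no test between genotypes was possible, and genotype, animals and library cannot be told apart.

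B cells form their receptor genes by cutting and joining V, D and J segments. RAG1 and RAG2 make the cuts, and terminal transferase, the product of Dntt, adds bases at the joints of the heavy chain. A cell with a finished heavy chain then tests it together with the surrogate light chain, made of the products of Vpreb1 and Igll1, and divides before RAG opens the light chain genes. The program runs under transcription factors that include EBF1, PAX5 and SOX4, and it normally takes place in bone marrow and fetal liver. Rag1, Rag2, Dntt, Vpreb1 and Igll1 are silent in resting mature B cells, whereas Ebf1 and Pax5 stay on until plasma cell stages. The first 5 are called the 5 early genes below.

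The WT library held 3749714 UMIs in 1278 barcodes, that of twi 4807539 UMIs in 1220, and 7 and 13 barcodes with more than 15% mitochondrial UMIs were left out. No barcode was shared by the libraries. B lineage cells had a median of 2017 UMIs in WT and 2202 in twi. Galc gave 4 WT and 8 twi UMIs, and a 3′ count does not read the mutation and so checks nothing. The B lineage label was compared with T cells by its markers: 7 B identity genes summed to 5917 CPM (UMIs scaled to a total of 1000000) in WT and 6435 CPM in twi B lineage cells, against 96.7 and 31.5 CPM in T cells, and none of the 7 was at 0. Neutrophil markers summed to 8954 CPM in WT B lineage cells, above the B identity genes, and to 478 CPM in twi. Cd3d, Cd3e and Cd3g were at 0 by the rule. All intervals given are 95% intervals for counting error only, exact for sums, shares and ratios of CPM and approximate for ratios of shares, and they hold no variation between animals. UMIs of a gene that come from a few cells vary more than such an interval shows, so shares of cells are given beside them.

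A small group of cells needed separate treatment. Among the WT B lineage cells, 10 had fewer than 5 Cd79 UMIs per 10000 UMIs. They were large (178414 UMIs in all), and 7 of them were cycling. Of the cycling cells, 4 carried between 195 and 352 UMIs of Mpo with between 78 and 215 of Elane, both genes of granulocyte precursors. Another cycling cell held 621 UMIs of Ngp and 2658 of S100a8, both among the neutrophil markers used here. A cell that was not cycling held 142 and 991 UMIs of these genes. A further cycling cell held 40 UMIs of Nkg7, a gene used here to call NK cells. In the twi library 1 cell had fewer than 5 Cd79 UMIs per 10000 UMIs, and it was not cycling. This limit was chosen after the cells were seen. The rule keeps these cells, and values without them are given as values of Cd79-rich cells.

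The B lineage cells made up 43.7% of WT CD45+ cells (40.9 to 46.4%) and 12.3% of twi cells (10.5 to 14.3%), a ratio of 0.283 (0.240 to 0.333). T cells made up 18.2% of WT and 55.7% of twi CD45+ cells, and a share of all cells falls when another class grows. All shares below are therefore given within B lineage cells unless stated otherwise. Other classes moved unevenly as shares of CD45+ cells. Their twi over WT ratios were 0.918 for NK cells (0.657 to 1.28), 0.602 for C1q macrophages (0.297 to 1.22) and 0.262 for neutrophils (0.193 to 0.355). The part of T cells in the B lineage ratio was not tested. Cycling cells, with at least 3 UMIs over a list of 20 cell cycle genes that holds none of the 9, numbered 38 in WT (6.85% of B lineage cells) and 12 in twi (8.05%). Their median depth was 5974 UMIs in WT and 4816 in twi, against 1987 and 2191 UMIs in cells that were not cycling.

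Transcripts of the 9 genes were largely those of B lineage cells in both libraries. In T cells, which should lack them apart from Sox4, the 5 early genes together gave 3 UMIs in 231 WT cells and 7 UMIs in 672 twi cells, or 4.20 and 2.62 CPM, against 498.6 and 658.6 CPM in B lineage cells. Any of the 5 was seen in 1.30% of WT T cells (median depth 2951 UMIs) and 1.04% of twi T cells (median depth 3506 UMIs), and these shares served as the background. A T cell had at least 2 UMIs of the Cd3 genes and no UMI of Cd79a or Cd79b. That rule leaves out T cells that held Cd79 transcripts, so these shares can understate the background. The contrast of B lineage with T cells is in part set by the rules. In B lineage cells the corresponding shares were 26.5% and 14.8%. Ebf1 was seen in 5.19% of WT and 2.08% of twi T cells, Vpreb3 in 4.33% and 1.04%, and Pax5 in 0.866% and 0.149%, while each of these genes was at 1 UMI in every T cell that had it. All 9 genes were at least 2-fold higher in WT B lineage than WT T cells, where 20.5% of the 7264 genes tested (those with at least 25 UMIs) were higher by that fold and 7.56% lower. In twi, 7 of the 9 reached 25 UMIs and all 7 were higher, beside 15.2% of 7894 genes higher and 12.8% lower.

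Sox4 was the exception to B lineage restriction. It was read in 11.3% of WT T cells (44 UMIs, 61.7 CPM) and 6.55% of twi T cells (79 UMIs, 29.6 CPM), with up to 5 and 12 UMIs in a cell. In C1q macrophages it stood at 343.9 CPM in 21 WT cells and 139.4 CPM in 12 twi cells. Its B lineage level was 11.8 times the T cell level in WT (8.76 to 16.4) and 19.4 times in twi (14.9 to 25.5).

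**Figure D1:**
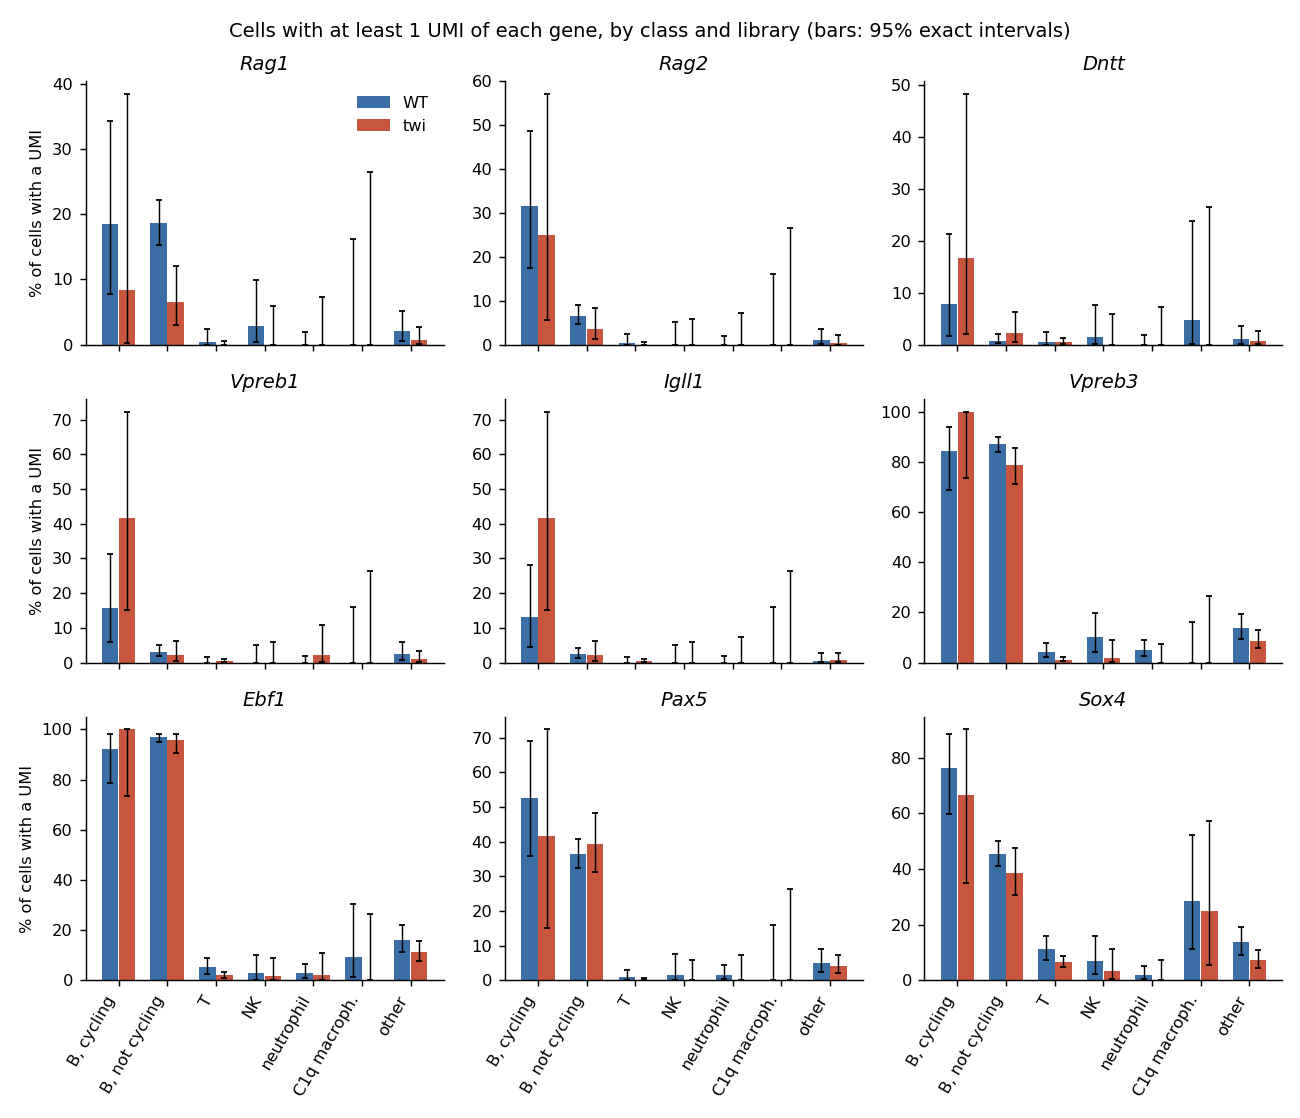
Percentage of cells with at least 1 UMI of each gene (vertical axes, each from 0) in cycling and other B lineage cells and in 5 further cell classes, for the WT (blue) and twi (red) library, with 95% exact intervals as thin lines. Rag1, Rag2, Dntt, Vpreb1 and Igll1 stand at or near 0 outside the B lineage, Ebf1 and Vpreb3 reach most B lineage cells, and Sox4 is also read in T cells and C1q macrophages.

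Rag1 and Rag2 encode the recombinase that cuts the receptor genes. They lie on chromosome 2 in opposite directions, Rag1 at 101638282-101649501 on the minus strand and Rag2 at 101624718-101632529 on the plus strand (mm10), 5752 bases apart. Rag1 gave 150 UMIs in WT B lineage cells and 13 in twi, or 109 and 35.1 CPM, a ratio of 0.323 (0.168 to 0.570). It was seen in 103 WT cells (18.6%) and 10 twi cells (6.71%), and the ratio of shares was 0.362 (0.194 to 0.675). Rag1 was therefore less frequent in twi B lineage cells beyond counting error, by level and by share.

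Reads of Rag1 were thin in each cell. Positive cells held between 1 and 4 UMIs in both libraries, and 75 of the 103 WT cells and 9 of the 10 twi cells held 1. Each cell was then thinned to 1000 UMIs, and 46 shallower WT cells and 2 twi cells were dropped. At that depth the shares were 12% of the WT cells kept and 3.40% of the twi cells, a ratio of 0.284 (0.116 to 0.693). The difference was thus as large at equal depth. Without the Cd79-poor cells the level ratio was 0.287 (0.149 to 0.506), and among cells that were not cycling it was 0.280 (0.141 to 0.504).

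Rag2 was thinner and its difference was not resolved. It gave 59 UMIs in WT and 11 in twi (42.7 and 29.7 CPM), a ratio of 0.695 (0.329 to 1.34), and was seen in 46 WT cells (8.29%) and 8 twi cells (5.37%), a ratio of shares of 0.648 (0.313 to 1.34), or 0.452 (0.138 to 1.48) after thinning. These intervals overlap those of Rag1, and the genes were not tested against each other. The 2 recombinase genes were seen in the same cell in a minority of cases. Among WT cells 16 had both, 87 had Rag1 alone and 30 had Rag2 alone, and among twi cells 1 had both, 9 had Rag1 alone and 7 had Rag2 alone. At 1 UMI in most positive cells, a gene not seen in a cell was often below detection rather than shown to be absent.

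Vpreb1 and Igll1 encode the 2 parts of the surrogate light chain, and they lie 4417 bases apart on chromosome 16, Vpreb1 at 16868403-16870843 and Igll1 at 16860671-16863985, both on the minus strand (mm10). Vpreb1 gave 136 UMIs in WT B lineage cells and 86 in twi, or 98.4 and 232 CPM, a ratio of 2.36 (1.78 to 3.11). Igll1 gave 146 and 87 UMIs, or 106 and 235 CPM, a ratio of 2.22 (1.68 to 2.92). Both genes were thus higher per UMI in twi B lineage cells, in the opposite direction to Rag1. In Cd79-rich cells the ratios were 2.1 (1.58 to 2.77) for Vpreb1 and 1.97 (1.5 to 2.59) for Igll1.

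The share of cells did not carry the same difference. Vpreb1 was seen in 22 WT cells (3.96%) and 8 twi cells (5.37%), a ratio of shares of 1.35 (0.616 to 2.98), and Igll1 in 18 (3.24%) and 8 (5.37%), a ratio of 1.66 (0.734 to 3.73). After thinning to 1000 UMIs the ratios of shares were 1.08 (0.403 to 2.90) and 1.33 (0.483 to 3.67), and the level ratios were 1.40 (0.80 to 2.36) for Vpreb1 and 2.02 (1.12 to 3.55) for Igll1. Most of the UMIs came from few cells. In the twi library 4 cells held 18, 22, 24 and 14 UMIs of Vpreb1 with 8, 32, 21 and 15 UMIs of Igll1, and the other positive cells held at most 3 UMIs of Vpreb1 and 5 of Igll1. In the WT library the highest cell of Vpreb1 held 22 UMIs and the highest of Igll1 held 29. The top 3 cells held 74.4% of Vpreb1 and 78.2% of Igll1 UMIs in twi, and 39.7% and 45.2% in WT. A difference in how many cells carry the surrogate light chain was not detectable at this depth.

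Dntt, which adds bases at the joints, was read in 7 WT cells (1.26%) and 5 twi cells (3.36%), a ratio of shares of 2.66 (0.857 to 8.26). Its UMIs were concentrated further. In WT, the 7 cells held 83, 49, 34, 12, 9, 7 and 4 UMIs, and in twi the 5 cells held 20, 13, 9, 4 and 1. The sums were 198 and 47 UMIs, or 143 and 127 CPM, a ratio of 0.885 (0.630 to 1.22). The WT cell with 83 UMIs had 4 UMIs of Cd79b, none of Cd79a and none of the other early genes, and without the Cd79-poor cells, of which it was 1, the ratio was 1.35 (0.943 to 1.92). Thinned, it was 1.54 (0.710 to 3.14), so that Dntt had no settled direction between the libraries.

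The surrogate light chain genes and Dntt came together in single cells. Of the 26 WT cells with Vpreb1 or Igll1, 14 had both, 8 had Vpreb1 alone and 4 had Igll1 alone, and of the 9 twi cells 7 had both. Among the cells with Dntt, 6 of 7 in WT and 4 of 5 in twi also had Vpreb1 or Igll1, and the 10 cells with both kinds held at least 7 UMIs of Vpreb1 each. At least 3 UMIs of Vpreb1 and Igll1 together were found in 14 WT cells (2.52%) and 7 twi cells (4.70%), a ratio of 1.86 (0.766 to 4.53). The UMIs of Vpreb1 carry a further uncertainty. Its near copy Vpreb2 matches it over 739 of 759 aligned transcript bases (97.4%), and 15.8% of its 90-base windows are found there unchanged, so that reads could be dropped or split between the genes. Vpreb2 itself gave 4 UMIs in WT and 7 in twi B lineage cells.

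**Figure D2:**
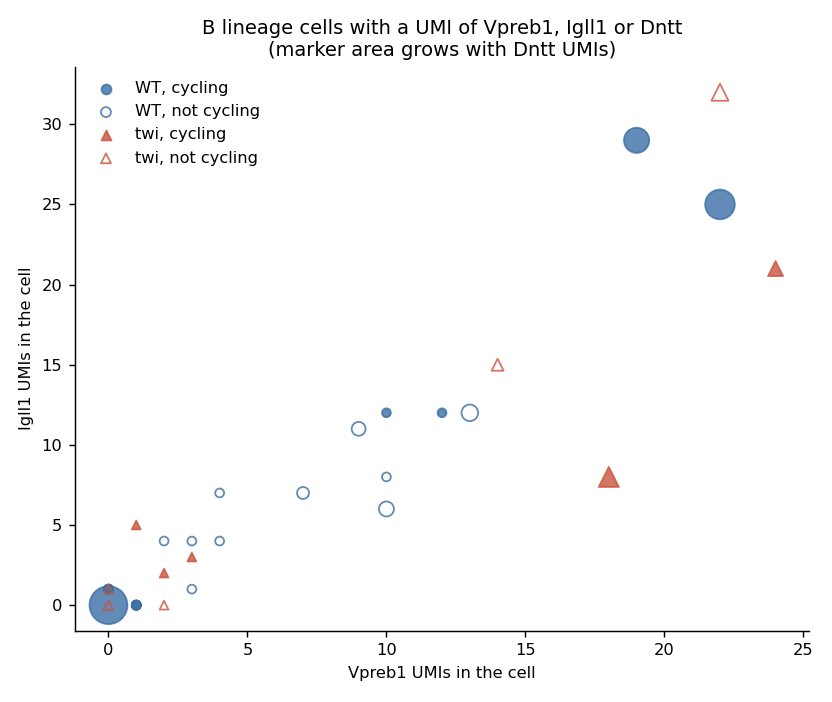
UMIs of Vpreb1 (horizontal axis) and of Igll1 (vertical axis) in each B lineage cell with a UMI of Vpreb1, Igll1 or Dntt; circles are WT and triangles twi, filled markers are cycling cells, and a larger marker holds more Dntt UMIs. The 27 WT and 10 twi cells lie along a rising line, apart from a pair of cells at the origin. The pair is the WT cell with 83 Dntt UMIs and a twi cell with 1. The other Dntt UMIs lie in cells with at least 7 UMIs of Vpreb1, among cells without Dntt.

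The 250 bases before the start site of Rag1, Rag2 and Igll1 are shown because these genes mark the early groups of cells described here. The sequences are from RefSeq (GRCm38.p6) and run 5′ to 3′ on the strand of each gene, Rag1 at chr2:101649533-101649782 (minus), Rag2 at chr2:101624462-101624711 (plus) and Igll1 at chr16:16863986-16864235 (minus). Capitals mark E-boxes, CANNTG, the letters bound by basic helix-loop-helix factors such as E2A, which read the same on both strands.
Rag1: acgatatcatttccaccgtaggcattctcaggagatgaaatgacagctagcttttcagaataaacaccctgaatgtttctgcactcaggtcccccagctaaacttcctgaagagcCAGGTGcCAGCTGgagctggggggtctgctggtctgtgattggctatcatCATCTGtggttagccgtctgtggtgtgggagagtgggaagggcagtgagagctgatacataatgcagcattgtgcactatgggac
Rag2: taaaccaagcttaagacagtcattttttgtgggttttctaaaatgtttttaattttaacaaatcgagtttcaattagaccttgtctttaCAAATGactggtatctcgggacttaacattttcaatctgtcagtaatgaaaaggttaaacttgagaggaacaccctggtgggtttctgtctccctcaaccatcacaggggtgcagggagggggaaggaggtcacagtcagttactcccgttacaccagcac
Igll1: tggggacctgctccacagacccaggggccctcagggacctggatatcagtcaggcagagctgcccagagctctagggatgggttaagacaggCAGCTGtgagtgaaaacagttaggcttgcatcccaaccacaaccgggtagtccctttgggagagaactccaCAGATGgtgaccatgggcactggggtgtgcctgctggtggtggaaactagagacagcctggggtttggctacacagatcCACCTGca
Rag1 and Igll1 hold 3 such words each and Rag2 holds 1. Of the 10 upstream windows listed for the 9 genes (Ebf1 has 2), 9 hold at least 1, and so do 66.2% of 32851 mouse promoters of the same length. The letters CCCNNGGG, the core of the site of early B cell factors and equal on both strands, were found once, in Igll1, against 11.8% of all promoters. Both words were chosen with the data known, and a match is a run of letters and not a bound site. The window before Vpreb1 overlaps an annotated exon and is not shown.

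Vpreb3, a relative of Vpreb1 that pairs with newly made immunoglobulin chains inside the cell, was seen in most B lineage cells, 483 in WT (87.0%) and 120 in twi (80.5%). It gave 3237 UMIs in WT and 760 in twi, or 2342 and 2051 CPM, a ratio of 0.876 (0.808 to 0.948). In Cd79-rich cells the ratio was 0.778 (0.718 to 0.842), and after thinning the shares were 80.4% and 68.7%, a ratio of 0.855 (0.760 to 0.961). Sox4 gave 1009 and 213 UMIs, or 730 and 575 CPM, a ratio of 0.787 (0.676 to 0.914), with 264 WT cells (47.6%) and 61 twi cells (40.9%) positive. Vpreb3 and Sox4 were therefore modestly lower in twi B lineage cells by level, and for the share of Sox4 cells the ratio of 0.861 had an interval that held 1 (0.696 to 1.06).

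The factors that hold B cell identity were close to even between the libraries. Ebf1, which opens the B cell program, gave 4110 and 1112 UMIs, or 2974 and 3001 CPM, a ratio of 1.01 (0.944 to 1.08), and was seen in 96.6% and 96.0% of cells. In Cd79-rich cells its ratio was 0.898 (0.839 to 0.959). Pax5, which keeps cells in the B lineage, gave 297 and 86 UMIs, or 215 and 232 CPM, a ratio of 1.08 (0.839 to 1.38), and was seen in 37.7% and 39.6% of cells.

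By fold, 2 of the 9 genes (Vpreb1 and Igll1) were at least 2-fold higher in twi B lineage cells and 1 (Rag1) at least 2-fold lower, where 1.76% of 6717 genes were higher and 4.08% lower by that fold. In Cd79-rich cells 1 was higher (Vpreb1, with Igll1 at 1.97) and 1 lower, beside 1.47% and 3.67% of 6373 genes. Summed over the 5 early genes the ratio was 1.32 (1.14 to 1.53), and over all 9 it was 0.964 (0.922 to 1.01). The sum of the 5 was not stable. Thinned to 1000 UMIs a cell it was 1.03 (0.764 to 1.37), and in cells with a Y-linked transcript and no Xist, which compares cells of male animals (211 in WT and 32 in twi), it was 0.815 (0.565 to 1.14). In those cells Vpreb3 stood at 1.18 (1.00 to 1.37) and Sox4 at 1.43 (1.10 to 1.84), the opposite direction to all cells. Ebf1 stood at 1.32 (1.15 to 1.5) and Dntt, with 4 twi UMIs, at 0.236 (0.0635 to 0.618). The ratio of shares of Rag1 was 0.322 (0.0818 to 1.27), with 2 positive twi cells, and its level ratio was 0.266 (0.0315 to 1.0002). Vpreb1 stood at 1.68 (0.873 to 3.002) and Igll1 at 1.64 (0.874 to 2.87), each seen in 1 twi cell. The intervals of Rag1, Vpreb1 and Igll1 thus held 1 in those cells. The part of the animals pooled in these differences was not tested.

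**Figure D3:**
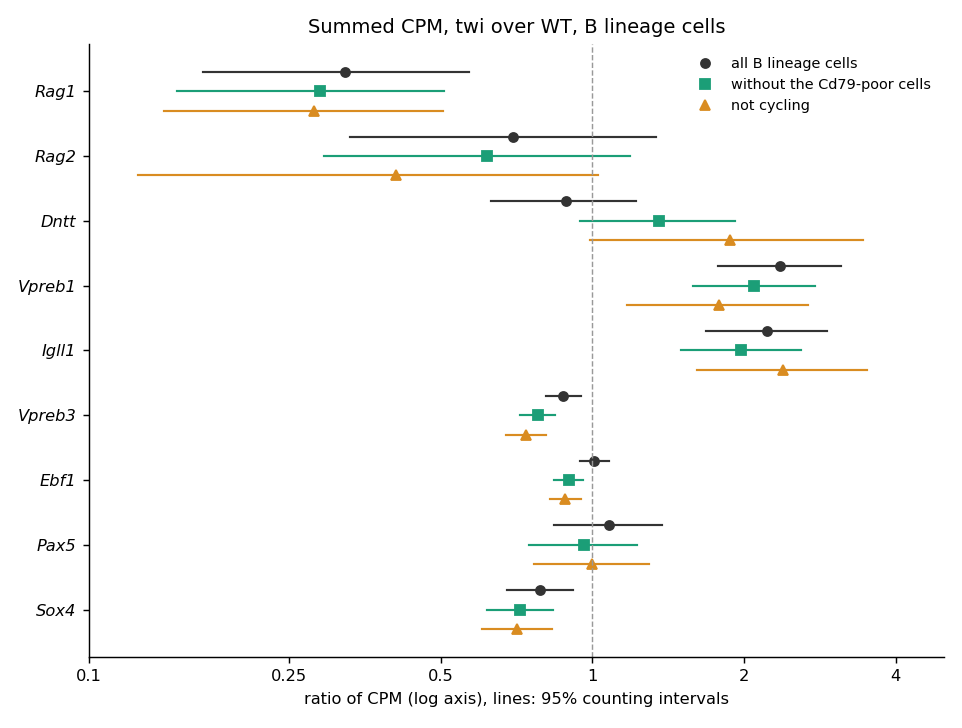
Ratio of summed CPM in twi over WT B lineage cells (log axis, dashed line at 1) with 95% counting intervals, for all B lineage cells (black circles), without the Cd79-poor cells (green squares) and for cells that were not cycling (orange triangles). Rag1 lies below 1 and Vpreb1 and Igll1 above 1 in each set, and Pax5 spans 1 in each.

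Over all CD45+ cells each of the 9 genes was lower in twi, as the B lineage share was. Such values also depend on the share of the other classes, T cells among them. The ratio was 0.0737 for Rag1 (0.0403 to 0.125), 0.161 for Rag2, 0.211 for Dntt, 0.216 for Vpreb3, 0.240 for Ebf1, 0.255 for Pax5 and 0.272 for Sox4. Vpreb1 stood at 0.583 (0.449 to 0.755) and Igll1 at 0.558 (0.430 to 0.721).

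The 5 early genes marked 147 WT cells (26.5%) and 22 twi cells (14.8%), a ratio of shares of 0.557 (0.370 to 0.840). Cells with Rag1 or Rag2 and no surrogate light chain made up most of the WT cells so marked, with 120 in WT (21.6%) against 12 in twi (8.05%), and the ratio was 0.372 (0.212 to 0.655). Cells with Vpreb1 or Igll1 numbered 26 (4.68%) and 9 (6.04%), a ratio of 1.29 (0.618 to 2.69), and 13 of the 26 and 5 of the 9 also had a Rag gene. After thinning, the share with any of the 5 was 17.3% in WT and 8.84% in twi (ratio 0.512, 0.294 to 0.889), that with a Rag gene 15.3% and 5.44% (ratio 0.355, 0.176 to 0.718), and that with the surrogate light chain 3.34% and 4.76% (ratio 1.43, 0.603 to 3.37). With a stricter limit of 2 UMIs of the 5 genes the ratio was 0.690 (0.36 to 1.32), an interval that held 1. As a share of all CD45+ cells, cells with any of the 5 came to 11.6% of WT and 1.82% of twi cells, and the ratio was 0.158 (0.101 to 0.245).

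Cells marked by the surrogate light chain were more often cycling than cells with none of the 5 early genes, 7 of 26 (26.9%) against 16 of 408 (3.92%) in WT and 5 of 9 (55.6%) against 5 of 127 (3.94%) in twi. Cells with Rag and no surrogate light chain lay between, with 14 of 120 (11.7%) in WT and 2 of 12 (16.7%) in twi. Cycling cells were deeper, which raises the chance to see any gene, and median depth was 2056 UMIs in WT cells with the surrogate light chain, 1931 in those with Rag and 2023 in those with none. In twi it was 3532 UMIs with the surrogate light chain, 2285 with Rag and 2191 with none, so the twi group with the highest share of cycling cells was also the deepest.

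Dntt, Igll1 and Vpreb1 were higher in cycling than in other B lineage cells of both libraries. In WT, the cycling cells held 65 UMIs of Vpreb1 (182 CPM) and the others 71 (69.3 CPM), a ratio of 2.63 (1.85 to 3.74), and in twi 48 (763 CPM) and 38 (124 CPM), a ratio of 6.17 (3.95 to 9.71). Igll1 stood at 3.39 in WT (2.42 to 4.76) and 3.97 in twi (2.53 to 6.19), and Dntt at 14.9 (10.2 to 22.5) and 7.87 (4.23 to 15.1). In Cd79-rich cells Vpreb1 stood at 4.78 in WT (3.36 to 6.78) and 6.03 in twi (3.85 to 9.48), and Igll1 at 6.15 (4.39 to 8.65) and 3.88 (2.47 to 6.04). Few cells carried these counts. Vpreb1 was seen in 6 of 38 cycling WT cells and 5 of 12 in twi, Igll1 in 5 of 38 and 5 of 12, and Dntt in 3 of 38 and 2 of 12. When cells were thinned to equal depth, the WT ratio of Vpreb1 was 1.93 (0.734 to 4.31), that of Igll1 2.0 (0.607 to 5.19) and that of Dntt 4.34 (1.55 to 10.7), and the first pair of intervals held 1. The thinned Dntt ratio rested on 7 UMIs in 3 WT cycling cells. Of these cells 1 was the Cd79-poor cell that held 83 Dntt UMIs before thinning. In Cd79-rich WT cells the ratio of Dntt before thinning was 13.5 (8.90 to 21.0), with 2 cycling cells positive. Their thinned ratio was not taken.

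The recombinase genes were read in this split as well. In WT, Rag1 held 7 UMIs in cycling cells (19.6 CPM) and 143 in the others (139.5 CPM), a ratio of 0.141 (0.0555 to 0.297), and Rag2 held 18 (50.5 CPM) and 41 (40 CPM), a ratio of 1.26 (0.682 to 2.25). In Cd79-rich WT cells the ratios were 0.255 (0.101 to 0.540) for Rag1 and 2.29 (1.24 to 4.08) for Rag2. In twi, Rag1 held 1 and 12 UMIs, a ratio of 0.407 (0.00952 to 2.75), and Rag2 6 and 5 UMIs, a ratio of 5.86 (1.49 to 24.3), with 4 of the 6 in the same cell. Thinned, the WT ratios were 0.180 for Rag1 (0.00448 to 1.03) and 0.992 for Rag2 (0.114 to 3.98). By cells, 10 of the 30 WT cells with Rag2 alone were cycling (33.3%, 17.3 to 52.8%) against 5 of the 87 with Rag1 alone (5.75%, 1.89 to 12.9%), and in twi the counts were 3 of 7 and 1 of 9. The share of cycling WT cells with Rag1 was 18.4%, close to the 18.6% of the other cells, and each of the 7 held 1 UMI. The cycling cells were deeper, and thinned to 1000 UMIs the shares were 2.63% (0.0666 to 13.8%) and 12.7% (9.86 to 16.1%).

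Over all WT B lineage cells the broadly read genes had lower summed CPM in cycling cells, and the Cd79-poor cells and depth moved these ratios. In WT, the ratios were 0.606 for Vpreb3 (0.553 to 0.664), 0.444 for Sox4 (0.367 to 0.533), 0.362 for Ebf1 (0.328 to 0.399) and 0.409 for Pax5 (0.282 to 0.579). In Cd79-rich WT cells they were 1.10 for Vpreb3 (1.00 to 1.2), 0.651 for Sox4 (0.528 to 0.795), 0.652 for Ebf1 (0.590 to 0.719) and 0.745 for Pax5 (0.513 to 1.05). The 7 Cd79-poor cycling cells held 163233 of the 356781 UMIs of WT cycling cells and 1 UMI of Vpreb3, so that the direction of Vpreb3 turned without them. In twi the ratios were 1.39 for Vpreb3 (1.16 to 1.65), 0.709 for Sox4 (0.455 to 1.07), 0.733 for Ebf1 (0.611 to 0.873) and 0.501 for Pax5 (0.209 to 1.04).

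In WT, 3 of the 9 genes (Dntt, Igll1 and Vpreb1) were at least 2-fold higher in cycling cells and 4 (Rag1, Ebf1, Pax5 and Sox4) at least 2-fold lower, where 12.9% of 6061 genes were higher and 19.1% lower. In Cd79-rich WT cells 4 were higher, Rag2 being added, and 1 was lower (Rag1), beside 12.9% and 17.9% of 5638 genes. In twi 7 of the 9 were tested and 3 were higher (Dntt, Igll1 and Vpreb1), with 0 lower, beside 14.3% and 17.9% of 2396 genes. The share of cycling cells among B lineage cells was not shown to differ between the libraries, at a ratio of 1.18 (0.631 to 2.19).

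**Figure D4:**
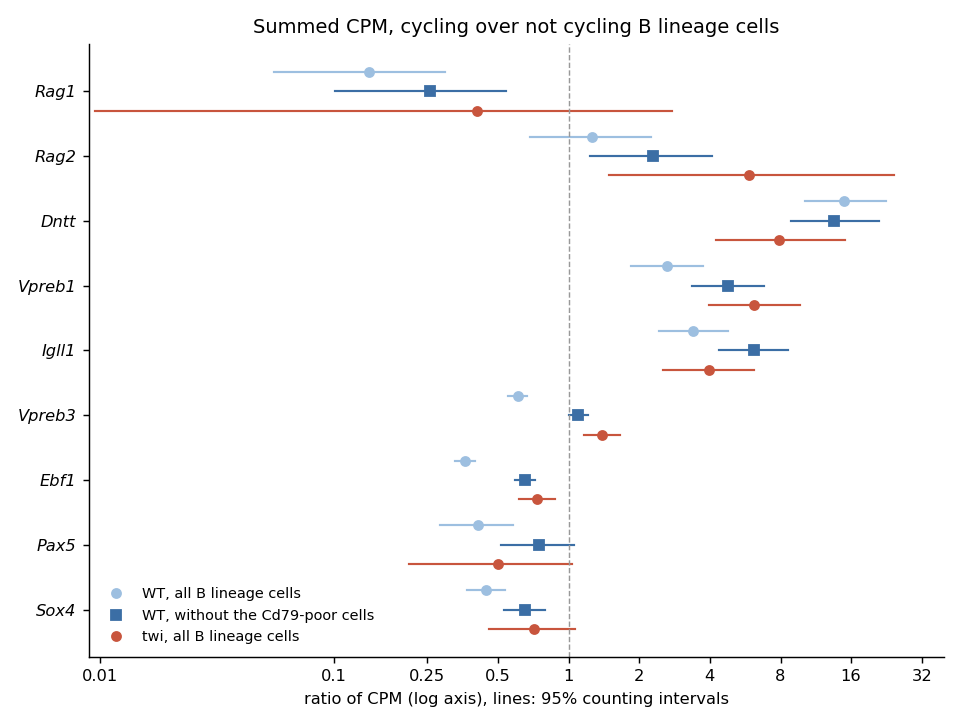
Ratio of summed CPM in cycling over other B lineage cells (log axis, dashed line at 1) with 95% counting intervals, for all WT cells (light blue), WT without the Cd79-poor cells (dark blue squares) and twi (red). Dntt, Vpreb1 and Igll1 lie above 1 in each set and Rag1 below 1 in WT, while Vpreb3 moves from 0.606 to 1.10 when the Cd79-poor cells are left out.

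Ms4a1, which encodes CD20 and comes on as B cells leave the pre-B stage, separated most of the early cells from the rest. It was seen in 25 of the 147 WT cells with an early gene (17.0%) and in 324 of the 408 with none (79.4%), and in twi in 2 of 22 (9.09%) and 101 of 127 (79.5%). Among Cd79-rich cells, those without Ms4a1 numbered 197 in WT and 45 in twi, or 35.5% and 30.2% of B lineage cells, a ratio of 0.851 (0.650 to 1.11). Vpreb1, Igll1 and Dntt were almost confined to them. WT cells without Ms4a1 held 133 of 136 Vpreb1 UMIs, 145 of 146 Igll1 UMIs and 115 of 115 Dntt UMIs of Cd79-rich cells, and twi cells 86 of 86, 87 of 87 and 46 of 47.

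The other members graded with Ms4a1 to different degrees. In WT the ratio of cells without Ms4a1 over cells with it was 5.93 for Rag1 (3.91 to 9.30), 25.4 for Rag2 (8.26 to 127), 2.90 for Sox4 (2.53 to 3.33), 1.60 for Vpreb3 (1.49 to 1.71), 1.53 for Ebf1 (1.44 to 1.63) and 0.853 for Pax5 (0.669 to 1.08). In twi it was 4.93 for Sox4 (3.61 to 6.82), 2.43 for Vpreb3 (2.1 to 2.82), 1.49 for Ebf1 (1.32 to 1.67) and 0.721 for Pax5 (0.434 to 1.17). Sox4 and Vpreb3 were thus higher where Ms4a1 was not seen, and the interval of Pax5 held 1 in both libraries. At least 2-fold higher without Ms4a1 were 6 of 9 genes in WT, beside 9.79% of 5638 genes higher and 7.24% lower, and 5 of the 7 tested in twi, beside 13.9% of 2347 genes higher and 10.1% lower.

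The twi over WT ratios were also taken on each side of the split by Ms4a1. Among cells without Ms4a1 the twi over WT ratio was 0.381 for Rag1 (0.192 to 0.690), 2.50 for Vpreb1 (1.89 to 3.31), 2.32 for Igll1 (1.76 to 3.05) and 1.55 for Dntt (1.08 to 2.20), whereas Vpreb3 stood at 0.977 (0.878 to 1.09), Sox4 at 0.909 (0.759 to 1.08) and Ebf1 at 0.908 (0.823 to 1.00). Among cells with Ms4a1 Vpreb3 stood at 0.642 (0.567 to 0.725) and Sox4 at 0.534 (0.395 to 0.712), and Rag1, with 1 UMI in twi and 28 in WT, at 0.107 (0.00262 to 0.647). The lower level of Rag1 was thus read on both sides of the split. The ratios of shares without Ms4a1 had intervals that held 1 for Vpreb1 (1.84, 0.862 to 3.94), Igll1 (2.06, 0.949 to 4.47) and Dntt (2.92, 0.859 to 9.92), and Dntt was seen in 6 WT and 4 twi cells. Rag1 was seen in 82 of 197 WT cells without Ms4a1 (41.6%) and 9 of 45 in twi (20%), a ratio of 0.480 (0.262 to 0.882). After thinning this ratio was 0.426 (0.181 to 1.003), and the interval held 1.

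The other genes of these stages were described by lists named for their roles. Against Cd79-rich cells with none of the 5 early genes, WT cells with Rag and no surrogate light chain had 5 of 10 tested pro-B and pre-B partner genes at least 2-fold higher and 0 lower (Il7r, Myb, Cd93, Smarca4 and Akap12), with a median log2 ratio of 1.05, beside 0.14 over all 5308 genes, of which 7.89% were higher and 6.93% lower. Il7r, the receptor for the growth factor IL-7, was at 284 CPM against 79.0 CPM, a ratio of 3.60 (2.55 to 5.09), and was seen in 40% against 9.27% of cells. Myb, a factor of proliferating precursors, stood at 2.77 (1.92 to 3.99) and Smarca4, a chromatin remodeling ATPase, at 3.63 (2.89 to 4.57). In twi 7 of 8 tested partner genes were higher and 0 lower, beside 14.5% of 2060 genes higher and 13.2% lower, with Il7r at 5.43 (2.33 to 12) and Smarca4 at 7.15 (4.37 to 11.6).

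In the list of V(D)J joining partners, 4 of 5 tested genes were at least 2-fold higher in these WT cells. Xrcc6, which encodes the Ku70 end-binding protein, stood at 3.78 (2.97 to 4.82) and Lig4, the DNA ligase of end joining, at 2.0 (1.06 to 3.72). The others, Hmgb1 at 2.77 (2.50 to 3.06) and Hmgb2 at 4.96 (4.41 to 5.57), encode DNA-bending proteins rather than end-joining ones. In twi 4 of 4 tested were higher (Xrcc6, Polm, Hmgb1 and Hmgb2), and Xrcc6 stood at 5.69 (2.92 to 10.8). Hmgb1 and Hmgb2 are also high in dividing cells, and 14 of the 120 WT cells were cycling.

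The mature B list was lower in the same cells, with 12 of 14 tested genes at least 2-fold lower and 0 higher in both libraries and a median log2 ratio of -3.42 in WT and -3.35 in twi. Cd74, the invariant chain of MHC class II, was at 1126 CPM in WT cells with Rag and no surrogate light chain and 17301 CPM in those with none, a ratio of 0.0651 (0.0579 to 0.0728). In the 9 twi cells with the surrogate light chain Cd74 gave 1 UMI and was seen in 11.1% of cells, while in the 26 WT cells it was seen in 53.8%. H2-Ab1 was seen in 26.9% of those WT cells and Ms4a1 in 15.4%, and both in 0 of the 9 twi cells, a count that leaves room for a share as high as 33.3%. The 4 WT cells that had both Ms4a1 and the surrogate light chain held 1 UMI of Vpreb1 or Igll1 each, and none of the 14 with both Vpreb1 and Igll1 had Ms4a1.

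In WT, cells with the surrogate light chain differed from the Rag cells in some members of these lists. In WT, 7 of 10 partner genes were at least 2-fold higher than in cells with none of the 5 early genes and 0 lower, beside 11.8% of 4791 genes higher and 15% lower, and in twi 4 of 7 were higher and 0 lower, beside 14.5% of 2139 genes higher and 17% lower. Lef1, a factor of dividing pro-B cells, stood at 7.53 in WT (3.92 to 14.5) and 9.24 in twi (2.94 to 31.6), against 1.48 (0.617 to 3.31) and 1.56 (0.0340 to 12.9) in the Rag cells. Ccnd3, the cyclin D3 gene, stood at 4.63 (3.72 to 5.76) and 5.09 (3.22 to 8.0), against 1.36 (1.06 to 1.74) and 2.04 (0.917 to 4.10). Akap12 was the reverse, at 0.878 (0.476 to 1.51) and 0.963 (0.293 to 2.49) with the surrogate light chain and 2.62 (2.0 to 3.45) and 3.52 (1.65 to 7.01) in the Rag cells. In twi the intervals of the surrogate light chain and Rag cells overlapped for Lef1, Ccnd3 and Akap12. Lef1 and Ccnd3 were also at least 2-fold higher in cycling than in other Cd79-rich WT cells. Of the 26 WT cells with the surrogate light chain 7 were cycling, with up to 24031 UMIs in a cell. The part of cycling in these ratios and the difference between these groups of cells were not tested.

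The broadly read members also varied over these groups. Sox4 was 3.07 times the level of the cells with none of the 5 in WT Rag cells (2.68 to 3.51) and 1.58 times in cells with the surrogate light chain (1.26 to 1.97), and in twi 3.51 (2.50 to 4.86) and 0.975 (0.592 to 1.54). Ebf1 stood at 1.53 (1.43 to 1.64) and 0.987 (0.881 to 1.10) in WT and 1.72 (1.44 to 2.05) and 0.908 (0.745 to 1.10) in twi. Vpreb3 stood at 1.59 (1.47 to 1.71) and 1.22 (1.08 to 1.37) in WT and 2.07 (1.67 to 2.55) and 1.67 (1.37 to 2.01) in twi, and Pax5 had an interval that held 1 in all 4. By summed CPM, Sox4, Ebf1 and Vpreb3 were therefore highest, of the 3 groups, in cells with Rag and no surrogate light chain in both libraries. For Vpreb3 in twi the intervals of the Rag and surrogate light chain groups overlapped. Summed CPM gives deep cells more weight, and 7 of the 26 WT cells with the surrogate light chain were cycling, with up to 24031 UMIs. By UMIs per cell the order of Ebf1 and Vpreb3 turned. In WT, the 26 cells held 356 UMIs of Ebf1 and 336 of Vpreb3, and the 120 Rag cells 1280 and 1014. The order among cells that were not cycling was not tested.

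**Figure D5:**
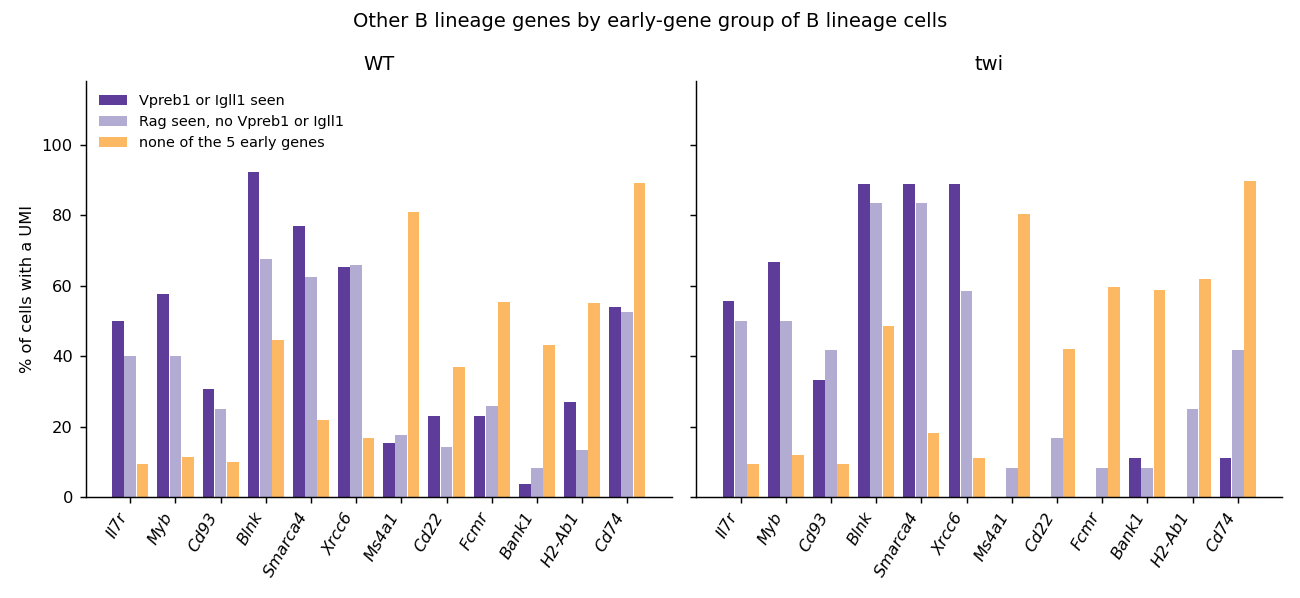
Percentage of cells with a UMI of 12 genes taken from the partner, joining and mature B lists, for B lineage cells with Vpreb1 or Igll1 (dark purple), with Rag and neither of these (light purple) and Cd79-rich cells with none of the 5 early genes (orange), in WT and twi. Il7r, Myb, Smarca4 and Xrcc6 are seen more often in both early groups, and Ms4a1, H2-Ab1 and Cd74 in the cells with none.

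Between genotypes, over all B lineage cells, the lists other than the mature B list moved little. Of the pro-B and pre-B partners 13 of 18 were tested, with 0 at least 2-fold higher in twi and 1 lower (Cd34, a progenitor marker, with 25 UMIs in WT and 0 in twi), and a median log2 ratio of -0.081. No UMI of Cd34 was in a Cd79-rich WT cell. The 14 B lineage transcription factors, 7 tested joining genes and 9 tested pre-B receptor signaling genes had 0 higher and 0 lower, with medians of -0.19, -0.18 and -0.017, beside 0.0010 over all 6717 genes. Of the 6717 genes, 1.76% were at least 2-fold higher and 4.08% lower. In the mature B list 3 of 15 were higher and 0 lower, with a median of 0.49. They were Fcer2a, which encodes CD23, at 2.06 (1.47 to 2.87), Cr2 at 2.49 (0.999 to 5.92) and Cd83 at 2.04 (1.36 to 3.02). In Cd79-rich cells 0 of 14 mature B genes passed the fold, with a median of 0.33, and 1 joining gene was lower (Lig4).

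Genes that accompanied the members were ranked in WT and then read in twi. Their WT ratios are the values used for the ranking and are therefore high by selection. Of the marked WT cells, 7 of 26 with the surrogate light chain and 17 of 133 with Rag were cycling. The part of cycling in these ratios was not tested. Among the 5 genes with the largest ratio in cells with the surrogate light chain over other B lineage cells were Sapcd2, Uhrf1, Rrm2 and Prc1. Uhrf1, a cofactor of DNA methylation in dividing cells, was seen in 12 of 26 cells, with a ratio of 10.4 in WT (6.77 to 16.1) and 7.03 in twi (3.11 to 15.9), and Rrm2, which is in the cycling list, stood at 9.23 (7.01 to 12.1) and 23.2 (11.2 to 52.8). With Rag the 5 genes were Rgs16, Stk3, Hdac11, Mki67 and Col27a1, of which Mki67 is in the cycling list. Stk3, a kinase of the Hippo pathway, was seen in 35 of 133 WT cells at a ratio of 5.97 (3.51 to 10.4), and in twi it gave 2 UMIs in all, too few to compare.

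Across the 12 sums of cycling and other B lineage cells, T cells, C1q macrophages, NK cells and neutrophils in both libraries, the gene most like Vpreb1 in log2(CPM + 10) was Igll1 (Pearson r = 0.992). Ebf1 was most like Mzb1 (0.994), Vpreb3 like Cd93 (0.992), Pax5 like Cnn3 (0.989), Rag2 like Ehd2 (0.986), Rag1 like Chst3 (0.963), Dntt like Rsph9 (0.959) and Sox4 like Pkig (0.954). These are descriptions over 12 points that share libraries and depth.

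Markers of other cells moved with the genotype in the same B lineage cells. Neutrophil markers (8 genes) summed to 6378 CPM in WT and 491 CPM in twi B lineage cells that were not cycling, and to 6026 and 2863 CPM in T cells, with none of the 8 at 0. In cycling B lineage cells they summed to 16357 CPM in WT and 413 CPM in twi, with Lcn2, Ltf and Mmp8 at 0 in twi. Without the Cd79-poor cells the sums were 1064 CPM in WT and 413 CPM in twi cycling cells, and 4473 and 489.6 CPM in the others. Over all B lineage cells, 8 microglia and macrophage markers summed to 525 and 154 CPM, with C1qa, C1qb and P2ry12 at 0 in twi. The 7 T cell markers summed to 23.2 and 81.0 CPM, with Cd8a at 0 in WT and Cd4 at 0 in twi. The 5 plasma cell markers summed to 702 and 726 CPM with Jchain at 0, and 7 plasmacytoid dendritic cell markers to 242 and 208 CPM with Ccr9 and Klk1 at 0. In twi, Siglech and Runx2 were at 0 as well. The mature B list summed to 17615 CPM in WT and 24327 CPM in twi. Their part in the differences of the 9 genes was not tested.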

How the data were processed

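Per the labels and the methods of the study, CD45+ cells from p21 brains were captured on a droplet platform with 3′ chemistry, and the authors aligned reads to mm10 and counted UMIs with Cell Ranger (version 2.1.1 in the submitters' processing notes). The deposited values are whole-number counts of UMIs per gene and barcode, not normalized, in 1 filtered matrix per genotype. Barcodes over 15% mitochondrial UMIs were left out, B lineage was called before the other classes, and no doublets were removed (Scrublet in scanpy 1.11.5 called 5 cells in WT and 5 in twi, of which 3 and 0 were B lineage). Counts were summed over cells and divided by the summed UMIs. With 1 library per genotype no count model was fitted. Sums and CPM ratios carry exact Poisson-based intervals, shares Clopper-Pearson intervals and ratios of shares Katz intervals (scipy 1.17.1). The intervals of CPM ratios and of shares were tested on simulated Poisson and binomial counts, and the Katz intervals were not tested. The simulated counts were not clumped by cell, so they do not test the intervals for UMIs that come from a few cells. Fold counts over all genes used at least 25 UMIs in both groups together, a pseudocount of 0.5 UMIs and a fold of 2. Thinning drew 1000 UMIs per cell. Correlations are Pearson's over class sums. The companions were the 5 genes with the largest WT ratio, of which 1 is not reported here, nor is 1 marker list. The 9 genes, the lists and the groupings were chosen with earlier results of these data known, and the split by Ms4a1 and the Cd79-poor limit were chosen after the files were read. Some immunoglobulin genes and Trbc2 were not analysed here, and Ms4a1 was used in place of Ighd. Distances, near copies and upstream sequences came from RefSeq and the mm10 annotation.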

Additional observations from a re-analysis of the deposited data

Results flagged for a closer look

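Vpreb3 stood at 0.606 in cycling over other B lineage cells in WT and at 1.39 in twi, on opposite sides of 1. The difference between the libraries was not tested. Without the Cd79-poor cells the WT ratio was 1.10.

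Barcodes that fell in no named class (197 in WT and 264 in twi) held transcripts of some of the 9 genes above their T cell level. By the rules these include barcodes with both Cd79 and Cd3 UMIs, and those with 1 Cd79 UMI that met no other rule. B lineage cells can therefore be among them, and how many was not counted. T cells made up 18.2% of WT and 55.7% of twi cells, so the number set aside for a Cd3 UMI can differ between the libraries. In WT, Ebf1 stood at 252 CPM and Vpreb3 at 153 CPM in these barcodes, against 16.8 and 14.0 CPM in T cells. In twi, Ebf1 stood at 159 CPM, Vpreb3 at 131 CPM, Sox4 at 69.4 CPM, Vpreb1 at 13.0 CPM, and Igll1 and Pax5 each at 12.2 CPM, against 5.24, 2.62, 29.6, 0.749, 0.749 and 0.375 CPM in T cells.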

How the results depend on the processing

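No paired analysis was possible because the labels hold 1 library for each genotype, so no value has a replicate check. Of 120 values that answer a comparison, under alternatives for the Cd79 and mitochondrial limits, mixed-marker cells, thinning, sex, scaling, doublets and Cd79-poor cells, 94 moved by less than their interval, 22 moved further and 4 turned, and of 327 single-gene values 290 stayed, 32 moved and 5 turned. The ratio of the early-gene share held its direction under these alternatives, between 0.412 and 0.690. With 1 Cd79 UMI required, the sum of the 9 genes stood at 0.862 in twi over WT and at 0.917 in twi cycling over other cells, which turned its direction. With 4 required these were 0.906 (twi over WT), and for WT cycling cells 3.83 (5 genes) and 0.779 (9 genes). Thinned to 1000 UMIs, the 5 genes stood at 1.03 in twi over WT, 1.44 in WT cycling and 6.63 in twi cycling cells, the 9 genes at 0.869, 0.779 and 1.35, WT cycling Vpreb3 at 1.00 and Pax5 at 1.16. In cells with Y-linked transcripts and no Xist, the B lineage share ratio was 0.357 and the cycling share ratio 0.549. The 5 genes then stood at 0.815 in twi over WT and 0.186 in twi cycling cells, and the 9 genes at 1.22, at 0.488 (WT cycling) and 0.795 (twi cycling), with 2 cycling twi cells. Vpreb3 stood there at 1.18 and Sox4 at 1.43 in twi over WT. Median-ratio scaling gave 0.606 for the 9 genes in WT cycling cells and shifted all genes by -0.11 (log2) there, by 0.36 and 0.18 in B lineage over T cells, by 0.11 in WT Rag cells and by 0.12 in both splits by Ms4a1. Without Cd79-poor cells (chosen after seeing the data) WT cycling ratios were 3.71 (5 genes), 0.947 (9 genes) and 1.10 (Vpreb3), and twi over WT was 0.867 for the 9 genes. Of the list genes, 3 were higher and 1 lower in twi, against 7 and 2 of 66 from 10 UMIs, and 5 and 5 of 57 at a fold of 1.5. Shares over all genes are not given for 10 UMIs or a fold of 1.5, so those counts cannot be set against a background. The causes were not tested.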

Other observations

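Cells with neither Ms4a1 nor any of the 5 early genes numbered 84 in WT and 26 in twi, of which 13 and 4 were cycling. They had median depths of 2197 and 2045 UMIs, close to those of cells with Ms4a1 and none of the 5 (2006 and 2202 UMIs), of which 3 of 324 and 1 of 101 were cycling. Among Cd79-rich cells, those with neither numbered 76 in WT and 25 in twi. The 84 WT cells thus include Cd79-poor cells, and 7 of the 10 Cd79-poor WT cells were cycling. Cycling cells among the 76 were not counted.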
